A study of Mus musculus with 8 samples.

Results

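The genes of the mitochondrial genome were examined in DC-restricted progenitors (CDPs) of the bone marrow (BM), the committed precursors of dendritic cells, from mice on a high fat diet (HFD) and from chow fed (CF) controls. Members were all rows of the count table whose Ensembl identifier lies on the mitochondrial chromosome of the GENCODE vM21 annotation of GRCm38. They were 36 of the 16119 genes in the table and 36 of the 37 genes of that chromosome, namely 13 mRNAs, 2 rRNAs and 21 of 22 tRNAs. The tRNA gene mt-Ts2 was not analysed here.

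RNA was compared in 8 libraries. The 4 HFD libraries came from C57BL/6 mice (C57BL/6J in the methods) labelled DIO and given 60 kcal% fat, and the 4 CF libraries came from control mice of that strain, labelled DIO-Control, on 10 kcal% fat. The labels give 16 weeks as the time on the diet for HFD and call CF age-matched without a number, and the study describes feeding of up to that length, while its methods give it as the age at purchase, so age and length of the diet are uncertain. About 50000 lineage negative, c-kit intermediate, Sca1 low, CD115+ Flt3+ cells were sorted for each library, and libraries were made from amplified total RNA with a kit that includes targeted depletion of rRNA. The libraries are described as independent replicates, but whether a library holds cells of a single mouse is not given, so p-values measure the spread between libraries. Whether mitochondrial rRNA was among the targets of that depletion is not given in the sources used here.

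The mitochondrial genome is a small circle that is transcribed from both strands into long precursors. Its mRNAs encode core subunits of the respiratory chain and of ATP synthase, and its rRNAs and tRNAs serve the ribosome that translates them inside the organelle. Most mRNAs and both rRNAs are flanked by tRNAs, and excision of the tRNAs by RNase P and ELAC2 releases the RNAs between them. All other proteins of mitochondria, including the polymerase and the tRNA synthetases, are encoded in the nucleus and imported.

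The tRNA sequences below, read 5′ to 3′ from GENCODE vM21 in DNA letters with the anticodon in capitals, are those on which the comparison turns. In the first set are the tRNAs whose HFD and CF libraries did not overlap, for phenylalanine (chrM:1-68), arginine (chrM:9808-9875), tryptophan (chrM:4950-5016) and aspartate (chrM:6942-7011), all 4 on the plus strand.
mt-Tf: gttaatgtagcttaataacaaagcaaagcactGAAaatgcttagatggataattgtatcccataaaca
mt-Tr: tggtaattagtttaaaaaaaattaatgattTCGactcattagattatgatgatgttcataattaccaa
mt-Tw: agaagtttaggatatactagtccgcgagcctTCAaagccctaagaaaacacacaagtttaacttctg
mt-Td: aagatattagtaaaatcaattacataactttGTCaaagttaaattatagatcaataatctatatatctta

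The second set holds the tRNAs with the most counts, for valine (chrM:1025-1093), methionine (chrM:3845-3913) and histidine (chrM:11546-11612), all on the plus strand.
mt-Tv: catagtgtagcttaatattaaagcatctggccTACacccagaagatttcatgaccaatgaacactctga
mt-Tm: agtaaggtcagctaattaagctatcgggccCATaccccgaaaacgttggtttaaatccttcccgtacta
mt-Th: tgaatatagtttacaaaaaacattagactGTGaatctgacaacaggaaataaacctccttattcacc

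The third set holds the tRNAs with the smallest differences, for tyrosine (chrM:5260-5326, minus strand), leucine with UUR codons (chrM:2676-2750, plus strand) and serine with UCN codons (chrM:6870-6938, minus strand).
mt-Ty: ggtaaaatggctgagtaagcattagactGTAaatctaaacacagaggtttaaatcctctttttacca
mt-Tl1: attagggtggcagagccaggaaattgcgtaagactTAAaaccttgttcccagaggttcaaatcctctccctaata
mt-Ts1: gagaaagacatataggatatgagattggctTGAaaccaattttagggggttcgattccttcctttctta

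These genes were 67 to 75 bases long, close to the read length of 75 bases. A count per gene therefore does not tell a mature tRNA from a fragment or from a precursor that spans it.

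Libraries held 28203651 to 38969160 counts in HFD and 32575696 to 48409689 in CF. Of these, the 36 mitochondrial genes took 6.29% to 8.23% in HFD and 6.55% to 8.14% in CF. Counts per gene and library ranged from 17 (mt-Tk in HFD replicate 1) to 50699 among tRNAs, from 3131 to 222414 among mRNAs and from 501054 to 1525258 for the rRNAs, and 6 tRNAs had fewer than 100 counts in at least 1 library. Levels are given as CPM, which are counts relative to library size after scaling by TMM factors. The 4 genes of the sort gate (Flt3, Csf1r, Kit and Ly6a) summed to 231 to 514 CPM in HFD and 400.2 to 470.5 CPM in CF. The summed level of 15 neutrophil genes, such as S100a8 and Ngp, was 20840, 3638, 1303 and 976 CPM in HFD replicates 1 to 4 and 1989, 6678, 6216 and 6072 CPM in CF replicates 1 to 4. HFD replicate 1 thus stood apart, with the lowest sum for the sort gate and the highest for the neutrophil list. Its low sort gate sum lay in Flt3, with 88.8 CPM against 227.5 to 378.0 CPM in the other libraries. This library was not the lowest for Csf1r, Kit or Ly6a. Its 10 erythroid genes summed to 713 CPM, against 103 to 177 CPM in the other libraries. The 8 genes of the dendritic cell programme summed to 457, 912, 768 and 1039 CPM in HFD replicates 1 to 4. Their sum was 610 to 647 CPM in CF, so that 3 of the 4 HFD libraries lay above every CF library. Irf8 alone had 250.7, 569.1, 509.1 and 673.8 CPM in HFD and 371.6 to 432.3 CPM in CF, and Spib, Siglech and Bst2 also tended higher in HFD. Id2 went the other way, with 19.8 to 30.8 CPM in HFD and 32.6 to 44.6 CPM in CF. Batf3 and Zbtb46 also tended lower in HFD, with overlap. The part of these differences in the mitochondrial values was not tested.

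All 36 mitochondrial genes had a log2 fold change below 0 in HFD against CF, as did 40.3% of the 15837 genes tested. None passed the test (edgeR, quasi-likelihood with Benjamini-Hochberg adjustment), with adjusted p between 0.0753 and 0.987, while 0.423% of all genes were called lower. At an unadjusted p below 0.05, 25 of the 36 were lower and 0 higher, against 5.34% and 3.22% of all genes. DESeq2 called 13 of them lower, 12 tRNAs and mt-Nd4l, where it called 3.18% of all genes lower, and limma voom called 0, against 0.442% of all genes, with 25 lower at an unadjusted p below 0.05, against 909 of all genes. Every HFD library lay below every CF library for 6 genes (mt-Tf, mt-Tr, mt-Tw, mt-Td, mt-Co1 and mt-Cytb), as for 3.58% of all genes, and above every CF library for 0, as for 2.58% of all genes. The median log2 fold change was -1.30 over the 21 tRNAs, -0.40 over the 13 mRNAs and -0.17 over the 2 rRNAs, beside 0.05 over all genes tested and 0.07 over 11762 nuclear protein-coding genes. Without HFD replicate 1, 19 of the 36 genes were lower at an unadjusted p below 0.05, as were 1549 of the 15863 genes then tested, and the median was -1.12 over the tRNAs and -0.29 over the mRNAs. In bulk RNA, less RNA per cell and fewer cells of a type cannot be told apart.

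**Figure D1:**
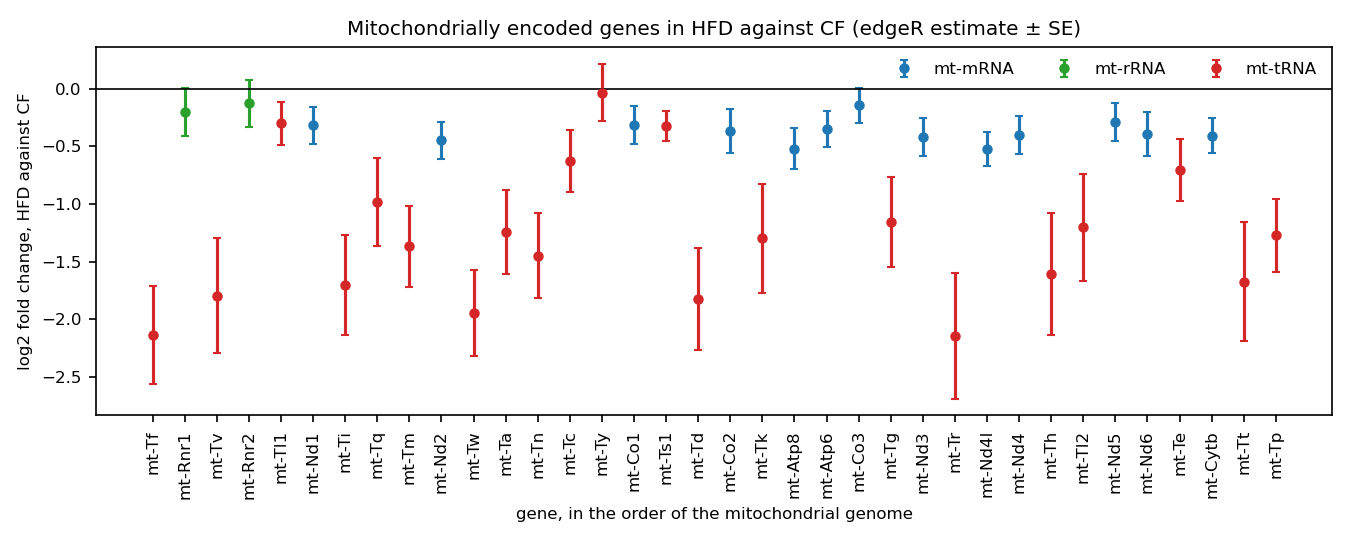
Log2 fold change of HFD against CF (y axis, edgeR estimate, bars ± SE) for 36 mitochondrial genes in the order of the genome (x axis), with mRNAs in blue, rRNAs in green and tRNAs in red. All estimates lie below 0, and the tRNAs reach down to -2.14 while no mRNA lies below -0.52.

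tRNA levels differed most between the diets in the 4 genes whose groups did not overlap. The arginine tRNA mt-Tr, which separates mt-Nd3 from mt-Nd4l, had 7.00, 19.5, 21.5 and 48.1 CPM in HFD replicates 1 to 4 and 139.6, 115.5, 118.5 and 51.2 CPM in CF replicates 1 to 4. The highest HFD library and the lowest CF library, both replicate 4, lay close together, and the log2 fold change was -2.14 ± 0.55 (SE, edgeR, adjusted p = 0.165). The phenylalanine tRNA mt-Tf, the first gene of the heavy strand transcript, had 5.84, 11.6, 9.79 and 20.2 CPM in HFD and 57.3, 51.0, 74.95 and 25.6 CPM in CF. Its log2 fold change was -2.14 ± 0.43 (edgeR, adjusted p = 0.0884), and its HFD mean was 22.7% of the CF mean.

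The tryptophan tRNA mt-Tw, whose anticodon reads the UGA codon that mitochondria use for tryptophan, had 2.15, 3.43, 2.57 and 3.74 CPM in HFD and 12.02, 11.93, 17.3 and 4.76 CPM in CF. It had the lowest adjusted p of the 36 genes, 0.0753 (edgeR, log2 fold change -1.95 ± 0.37). The aspartate tRNA mt-Td had 1.22, 2.80, 2.68 and 5.53 CPM in HFD and 14.7, 10.1, 12.6 and 6.19 CPM in CF (log2 fold change -1.83 ± 0.44, edgeR, adjusted p = 0.143). CF replicate 4 was the lowest CF library for all 4 genes. Without it 3 tRNAs passed (mt-Tf, mt-Tm and mt-Tw), where 0.968% of all genes were called lower.

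The 3 most abundant tRNA genes, mt-Tv, mt-Tm and mt-Th, held 62.1% to 73.8% of all mt-tRNA counts of a library. The valine tRNA mt-Tv, which lies between the rRNA genes and is also a structural part of the human mitochondrial ribosome, had 111.4, 264.0, 261.7 and 539.4 CPM in HFD and 1310, 1201, 1145 and 430.3 CPM in CF. The groups overlapped through HFD replicate 4 and CF replicate 4, and the estimate was -1.80 ± 0.50 (edgeR, adjusted p = 0.206). The methionine tRNA mt-Tm, which serves both initiation and elongation, had 235.4, 233.8, 208.3 and 393.2 CPM in HFD and 1040, 657.3, 740.7 and 326.0 CPM in CF (-1.37 ± 0.35, adjusted p = 0.160). The histidine tRNA mt-Th had 61.6, 93.6, 150.6 and 342.5 CPM in HFD and 686.1, 483.4, 544.7 and 264.5 CPM in CF (-1.61 ± 0.53, adjusted p = 0.331). In each of these 3 genes, HFD replicates 1 to 3 lay below every CF library and replicate 4 did not.

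HFD replicates 1 to 3 also lay below every CF library, and replicate 4 did not, in 10 other tRNAs. Isoleucine (mt-Ti, -1.70), threonine (mt-Tt, -1.67), asparagine (mt-Tn, -1.45), lysine (mt-Tk, -1.30), proline (mt-Tp, -1.27), alanine (mt-Ta, -1.25), leucine with CUN codons (mt-Tl2, -1.20), glycine (mt-Tg, -1.16) and glutamine (mt-Tq, -0.98) had adjusted p between 0.153 and 0.475 (edgeR). The lysine tRNA rested on 17 to 119 counts per library in HFD and 87 to 182 in CF. Glutamate (mt-Te, -0.70 ± 0.27, adjusted p = 0.455) was the last of the 10. Cysteine (mt-Tc, -0.63 ± 0.26, adjusted p = 0.544) overlapped more widely between the diets. Among all 21 tRNAs, HFD replicate 4 was the highest HFD library for 19 and CF replicate 4 the lowest CF library for 20. HFD replicate 1 was the lowest HFD library for 19 and CF replicate 1 the highest CF library for 15.

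The tyrosine, leucine (UUR) and serine (UCN) tRNAs shown in the third set differed least. mt-Ty had 2.76, 4.97, 3.67 and 4.20 CPM in HFD and 3.85, 4.96, 4.47 and 2.70 CPM in CF, and its estimate was -0.03 ± 0.25 (edgeR, adjusted p = 0.987). mt-Tl1, which lies directly behind mt-Rnr2 in the precursor, had 3.88 to 4.95 CPM in HFD and 3.95 to 6.51 CPM in CF (-0.30 ± 0.19, adjusted p = 0.779). mt-Ts1 had 19.5 to 25.9 CPM in HFD and 24.3 to 32.6 CPM in CF (-0.32 ± 0.13, adjusted p = 0.497). The log2 fold change of the tRNAs had a Spearman rank correlation of 0.13 with gene length across the 21 genes, which were 65 to 75 bases long. The correlation was 0.39 with GC content and -0.25 with the level, as descriptions across genes that share the same libraries. The median log2 fold change was -1.67 over the 13 tRNAs encoded on the plus strand of the reference and -0.84 over the 8 on the minus strand, which was not tested.

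**Figure D2:**
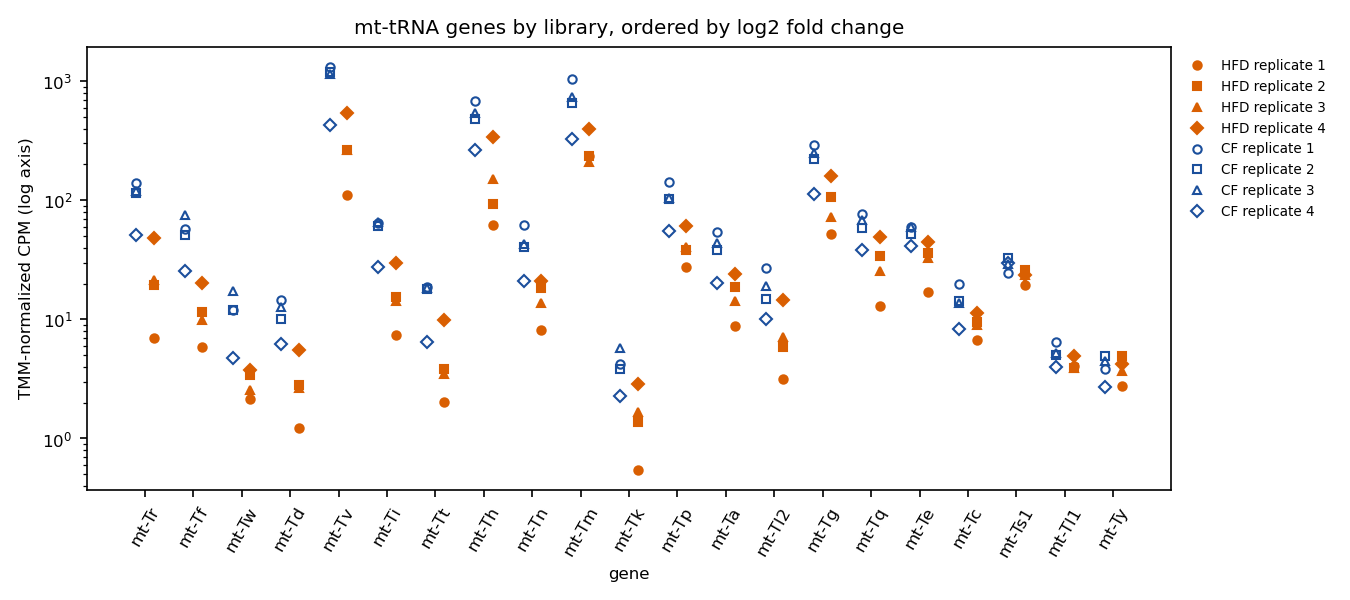
Level of 21 mt-tRNA genes (y axis, TMM-normalized CPM, log axis) in each library, with genes ordered by log2 fold change (x axis), HFD libraries as filled orange symbols and CF libraries as open blue ones. HFD replicate 4 (filled diamond) is the highest HFD library and CF replicate 4 (open diamond) the lowest CF library for most genes, for example 539.4 and 430.3 CPM for mt-Tv.

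As a class, mt-tRNAs took 0.0601%, 0.107%, 0.102% and 0.192% of all counts in HFD and 0.329%, 0.281%, 0.305% and 0.176% in CF. The HFD mean was 0.115% ± 0.055 (SD, n = 4) and the CF mean 0.273% ± 0.068, with p = 0.0571 by an exact permutation test (two-sided), or 0.171 when adjusted over 9 shares and ratios. The diets overlapped only through the 2 replicates numbered 4. Over the counts of genes longer than 200 nt the groups did not overlap (log2 difference -1.53, exact p = 0.0286, the smallest that 4 libraries against 4 can give).

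Values of short nuclear RNAs, which include snoRNAs and snRNAs, are given beside those of the mt-tRNAs. Nuclear non-coding genes of up to 200 nt took 8.43%, 11.1%, 11.95% and 13.4% of the counts in HFD and 33.6%, 24.6%, 25.8% and 21.5% in CF. The 643 of them that were tested had a median log2 fold change of -1.29, and the 182 of up to 100 nt one of -1.27, beside -1.30 for the mt-tRNAs. An unadjusted p below 0.05 with a lower HFD level was found for 82.9% of these 643 genes, against 90.5% of the mt-tRNAs. Of the 643, 54 were called and 60.2% had every HFD library below every CF library, against 0 called and 19.0% of the mt-tRNAs. Relative to the counts of these nuclear genes, mt-tRNA counts had a log2 ratio of -6.70 ± 0.43 in HFD and -6.61 ± 0.24 in CF (exact p = 0.771, chosen after seeing the data). This ratio differed by -0.09, less than the spread between replicates, by 0.06 without HFD replicate 1 and by -0.28 without HFD replicate 4. The part that the recovery of short RNA has in the tRNA values was not tested.

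**Figure D3:**
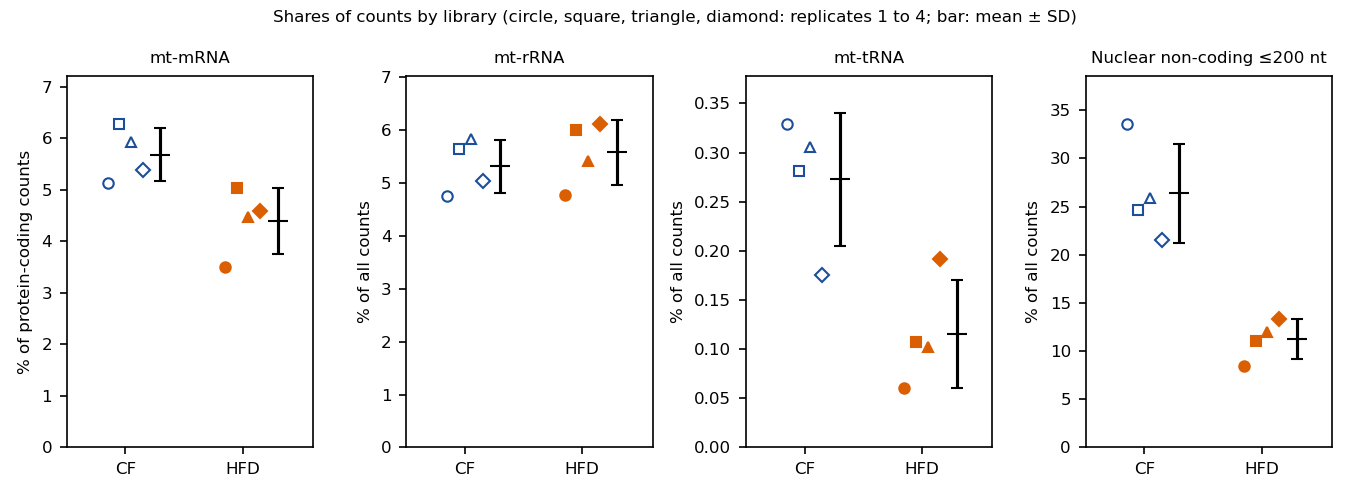
Shares of counts by library (y axes, percent), for mt-mRNA among protein-coding counts and for mt-rRNA, mt-tRNA and nuclear non-coding genes of up to 200 nt among all counts, in CF (open blue) and HFD (filled orange), with mean ± SD (n = 4) as bars. The mt-tRNA share (0.115% in HFD, 0.273% in CF) and the nuclear short RNA share (11.2% and 26.4%) lie lower in HFD, while the mt-rRNA share does not.

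Within the mitochondrial genome, the log2 ratio of tRNA to mRNA counts was -4.59, -4.30, -4.12 and -3.22 in HFD and -2.14, -2.93, -2.72 and -3.69 in CF. The groups overlapped through HFD replicate 4 and CF replicate 4 (difference -1.19, exact permutation p = 0.0571, or 0.171 when adjusted). Without mt-Tv, mt-Tm and mt-Th, and with each library left out, the difference stayed between -1.47 and -0.94.

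The 13 mRNAs differed less than most tRNAs and in a narrow range, from -0.15 to -0.52 on the log2 scale, with 6 at an unadjusted p below 0.05, where 5.34% of all genes and 1.62% of nuclear protein-coding genes were lower. NADH dehydrogenase (complex I) has 7 of them. Its smallest mRNA mt-Nd4l had 207.2, 279.5, 229.1 and 211.9 CPM in HFD and 278.6, 388.7, 346.0 and 319.0 CPM in CF, so that 3 of the 4 HFD libraries lay below every CF library. Its log2 fold change of -0.52 ± 0.15 was, with that of mt-Atp8, the largest among the mRNAs (edgeR, adjusted p = 0.212). mt-Nd2 (-0.45 ± 0.16, adjusted p = 0.413), mt-Nd3 (-0.42 ± 0.16, 0.481) and mt-Nd4 (-0.40 ± 0.17, 0.533) followed, then mt-Nd1 (-0.32 ± 0.16, 0.686) and mt-Nd5 (-0.29 ± 0.17, 0.746).

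mt-Nd6 is the complex I subunit encoded on the other strand, away from the remaining 12 mRNAs. It had 438.9, 770.0, 602.2 and 587.9 CPM in HFD and 658.1, 896.9, 837.8 and 762.6 CPM in CF (log2 fold change -0.40 ± 0.19, edgeR, adjusted p = 0.645). The log2 ratio of its counts to those of the 12 other mRNAs was -4.75 ± 0.19 (SD, n = 4) in HFD and -4.68 ± 0.06 in CF, which differed by less than the SD in HFD (exact permutation p = 0.514). Its gene shares 14 bases with mt-Nd5 on the opposite strand, and whether counting used the strand is not given.

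mt-Cytb, the mitochondrial subunit of complex III, had 1281, 1636, 1468 and 1559 CPM in HFD and 1703, 2268, 2059 and 1851 CPM in CF. The groups did not overlap, and the estimate was -0.41 ± 0.15 (edgeR, adjusted p = 0.448). Among the subunits of cytochrome c oxidase (complex IV), mt-Co1 had 4652, 5396, 4668 and 5249 CPM in HFD and 5519, 7074, 6631 and 5588 CPM in CF. These groups did not overlap either, although HFD replicate 2 and CF replicate 1 lay close together (-0.31 ± 0.16, adjusted p = 0.700). mt-Co2 (-0.37 ± 0.19, adjusted p = 0.686) and mt-Co3 (-0.15 ± 0.15, adjusted p = 0.883) overlapped between the diets, and the mt-Co3 estimate was 0.06 when libraries were scaled by their totals alone.

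The ATP synthase (complex V) mRNAs mt-Atp8 and mt-Atp6 lie on a shared transcript and overlap by 43 bases. mt-Atp8 had 415.7, 661.6, 514.6 and 513.8 CPM in HFD and 630.9, 903.8, 788.8 and 698.7 CPM in CF, and HFD replicate 2 alone lay above the lowest CF library (log2 fold change -0.52 ± 0.18, edgeR, adjusted p = 0.362). mt-Atp6 had 1110 to 1401 CPM in HFD and 1398 to 1931 CPM in CF (-0.35 ± 0.16, adjusted p = 0.597). HFD replicate 1 was the lowest HFD library for all 13 mRNAs, and HFD replicate 2 was the highest for 12, mt-Co3 being the exception.

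**Figure D4:**
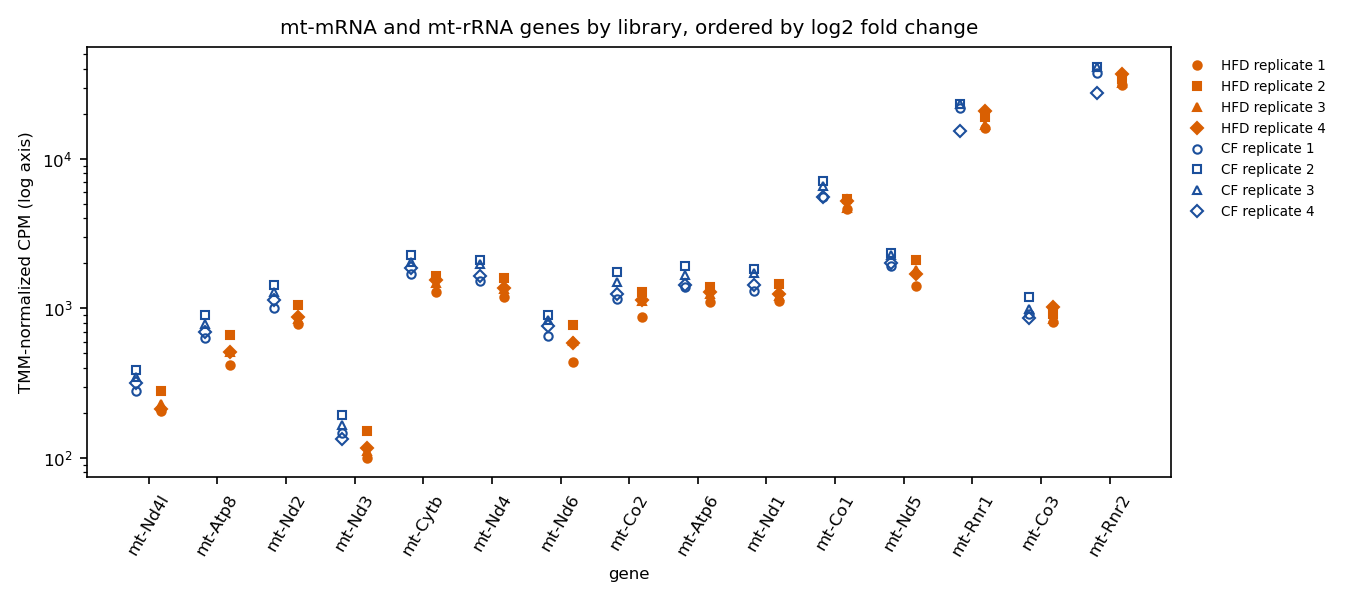
Level of 13 mt-mRNA and 2 mt-rRNA genes (y axis, TMM-normalized CPM, log axis) in each library, with genes ordered by log2 fold change (x axis), HFD libraries as filled orange symbols and CF libraries as open blue ones. HFD libraries tend to lie lower for the mRNAs, for example for mt-Cytb, with 1281 to 1636 CPM in HFD and 1703 to 2268 CPM in CF, and CF replicate 4 is the lowest library for both rRNAs.

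The mRNAs were also summed and set against all protein-coding counts, which leaves out rRNA and short RNA. mt-mRNA made up 3.50%, 5.03%, 4.48% and 4.58% of protein-coding counts in HFD and 5.13%, 6.28%, 5.93% and 5.38% in CF, so the diets did not overlap. The mean was 4.40% ± 0.65 (SD, n = 4) in HFD and 5.68% ± 0.52 in CF (exact permutation p = 0.0286, or 0.171 when adjusted over the 9). HFD replicate 1, the library with the highest neutrophil level, had the lowest share. Without it the log2 difference was -0.27 instead of -0.37 and the groups still did not overlap (exact permutation p = 0.0571, the smallest that 3 against 4 can give). Among all counts, mt-mRNA took 1.78% ± 0.27 in HFD and 1.97% ± 0.36 in CF (exact permutation p = 0.400, or 0.579 when adjusted). The log2 difference of this share was -0.14, and it depended on what it was taken over, with -0.02 over counts outside rRNA genes and -0.41 over genes longer than 200 nt.

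The make-up of mt-mRNA was similar between the diets. Complex I mRNAs held 37.7% ± 1.59 (SD, n = 4) of mt-mRNA counts in HFD and 38.3% ± 0.59 in CF, complex IV 42.5% ± 1.69 and 41.1% ± 0.62, and complex V 10.8% ± 0.22 and 11.2% ± 0.27. mt-Cytb, the complex III mRNA, held 8.89%, 8.74%, 9.16% and 9.25% in HFD and 9.36%, 9.31%, 9.25% and 9.67% in CF. The groups touched without overlap (exact permutation p = 0.0286, or 0.162 when adjusted over 17 shares). With counts taken per kb, the log2 difference of this share was -0.03 instead of -0.06 (exact permutation p = 0.429), and that of complex V was -0.08 instead of -0.06 (exact permutation p = 0.0286, unadjusted). mt-Nd4l held 1.44%, 1.49%, 1.43% and 1.26% in HFD and 1.53%, 1.596%, 1.55% and 1.67% in CF, also without overlap (exact permutation p = 0.0286, or 0.162). mt-Co3 held 5.46% ± 0.47 in HFD and 4.74% ± 0.27 in CF (exact permutation p = 0.0571, or 0.162). mt-Atp8 held 3.17% ± 0.28 in HFD and 3.59% ± 0.11 in CF, and mt-Nd2 5.41% ± 0.20 and 5.80% ± 0.20. Each of these had an exact permutation p of 0.0571, or 0.162 when adjusted. Across the 13 genes, the log2 fold change had a Spearman rank correlation of 0.56 with gene length and 0.58 with the level, as a description of genes that share the same libraries.

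The rRNAs of the mitochondrial ribosome were the most abundant members and among those that differed least. mt-Rnr1, the 12S rRNA of the small subunit, had 16080, 18950, 16750 and 20820 CPM in HFD and 22050, 23270, 23120 and 15280 CPM in CF (log2 fold change -0.21 ± 0.21, edgeR, adjusted p = 0.877). mt-Rnr2, the 16S rRNA of the large subunit, had 31420, 34400, 31930 and 37010 CPM in HFD and 37540, 40930, 41450 and 27380 CPM in CF (-0.13 ± 0.21, adjusted p = 0.935). In both, CF replicate 4 lay below every HFD library and the other CF libraries above all 4. Scaled by library totals alone, both estimates were above 0, at 0.02 and 0.09, and the median of all genes was 0.25 instead of 0.05.

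The share of mt-rRNA among all counts was 5.58% ± 0.62 in HFD and 5.32% ± 0.50 in CF (SD, n = 4, exact permutation p = 0.514). The log2 ratio of mt-Rnr2 to mt-Rnr1, which come from the same precursor, was 0.90 ± 0.06 in HFD and 0.82 ± 0.03 in CF (exact permutation p = 0.0857, or 0.193 when adjusted). The log2 ratio of rRNA to mRNA counts was 1.65 ± 0.12 in HFD and 1.45 ± 0.23 in CF (exact permutation p = 0.171, or 0.309 when adjusted). The difference of 0.20 was 0.10 without CF replicate 4 and 0.29 without CF replicate 1.

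Per kilobase of gene, the levels in CF were highest for mt-Rnr2 (23280 CPM per kb ± 4127 SD) and mt-Rnr1 (21910 ± 3986). mt-Tv (14800 ± 5798), mt-Tm (10020 ± 4258) and mt-Th (7383 ± 2618) followed, then mt-Co1 (4015 ± 500), mt-Atp8 (3704 ± 579) and mt-Tg (3215 ± 1124). mt-Tk (61.7 ± 21.9) and mt-Ty (59.6 ± 14.6) were lowest. In HFD the rRNAs again led, with 21300 ± 1623 and 19000 ± 2262, and mt-Tv reached 4263 ± 2586.

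The levels of several mRNAs depend on how reads were shared with nuclear copies. A stretch of chromosome 1 in GRCm38, chr1:24611535-24616197 on the minus strand, holds 7 annotated pseudogenes that repeat the order of mt-Co1 to mt-Nd4. Between 96.9% and 100% of the 75-base windows of each were found unchanged in a mitochondrial gene. Of 12 nuclear pseudogenes with a shared window, these 7 were used as copies. The others shared 0.898% to 23.1% of their own windows. For mt-Co2, mt-Atp6, mt-Co3, mt-Nd3 and mt-Nd4l, 97.8% to 99.9% of the gene's own windows were shared with nuclear transcripts. The share was 61.5% for mt-Nd4, 39.8% for mt-Co1, 5.7% for mt-Nd2 and 1.66% for mt-Nd5. No window was shared for the tRNAs (matched over their whole length), rRNAs, mt-Atp8, mt-Nd1, mt-Nd6 and mt-Cytb. Only annotated transcripts were searched, so unannotated copies of the genes that lie among these in the mitochondrial genome (mt-Ts1, mt-Td, mt-Tk, mt-Atp8, mt-Tg and mt-Tr) were not examined.

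Although uniquely mapped pairs are stated to have been counted, these copies were given 171465 to 310670 counts per library, or 38.2% to 43.1% of those of the 13 mRNAs. Gm10925 had 1.29 to 1.45 counts per count of mt-Atp6, and Gm28661 had 1.29 to 1.44 per count of mt-Co2. Gm28437 (mt-Co3), Gm10222 (mt-Nd4l) and Gm28438 (mt-Nd3) had 1.17 to 1.42. Gm28439 had 0.479 to 0.504 per count of mt-Nd4 and Gm29216 had 0.204 to 0.232 per count of mt-Co1. Outside the 7, Gm13341 had 0.101 to 0.126 per count of mt-Co2 and Gm13340 had 0.0884 to 0.109 per count of mt-Co1. The 7 copies thus held more counts than the mitochondrial gene for 5 of the 7 pairs, and the diets overlapped in this ratio for each of the 7. Gm28439 and Gm29216 cover only a part of their mitochondrial gene, so their ratios do not compare equal lengths.

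With the counts of the copies added to their mitochondrial gene, a step chosen after seeing the data, the level of mt-Atp6 in CF was 5616 CPM per kb instead of 2362, that of mt-Co2 was 4949 instead of 2080 and that of mt-Co3 was 2964 instead of 1267. mt-Atp6 then stood above mt-Co1 (4844). The differences between the diets were little affected, with a median mRNA log2 fold change of -0.40 as before. Of the 36 genes 0 were called and 25 were lower at an unadjusted p below 0.05, as were 67 and 842 of the 15830 genes in that fit.

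**Figure D5:**
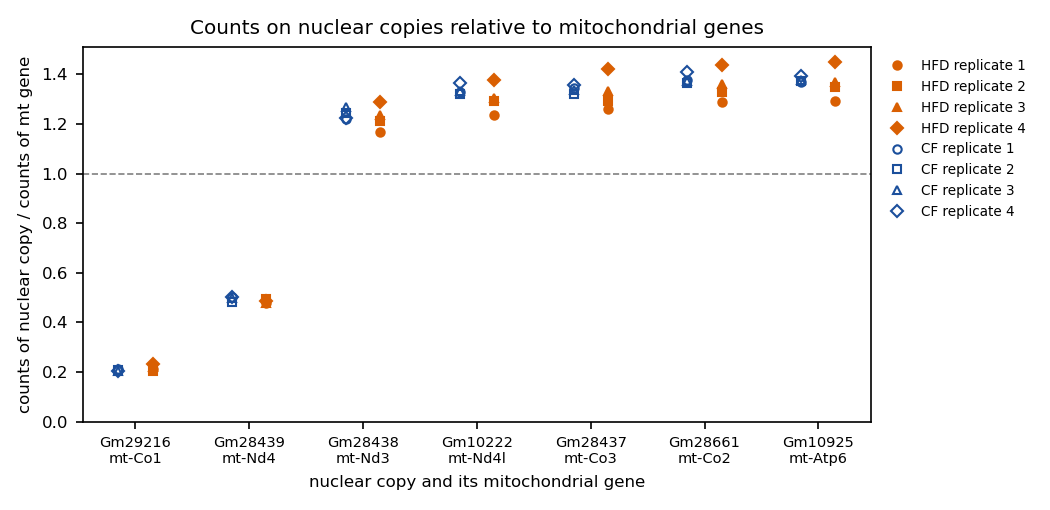
Counts of each of 7 nuclear copies divided by the counts of its mitochondrial gene (y axis) in each library, with the pairs on the x axis, HFD as filled orange and CF as open blue symbols, and a dashed line at equal counts. For 5 pairs all 8 libraries lie above the line, up to 1.45 for Gm10925 and mt-Atp6.

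Genes of the nucleus that maintain, transcribe and translate mitochondrial DNA were listed and read from the same fit. Of 242 tested genes in these lists 0 were called, 14 were higher and 2 lower in HFD at an unadjusted p below 0.05, where 437 and 191 of the 11762 nuclear protein-coding genes were. The median log2 fold change was 0.13, beside 0.07 over nuclear protein-coding genes. An estimate above 0 was found for 197 of the 242, and for 7612 of the 11762 nuclear protein-coding genes. The 80 nuclear subunits of the respiratory chain had a median of 0.15 and 69 estimates above 0, in contrast to 0 of the 13 mitochondrial subunits. The log2 ratio of mt-mRNA to these nuclear mRNAs was 2.93, 3.46, 3.11 and 2.93 in HFD and 3.35, 3.63, 3.71 and 3.56 in CF, and the groups overlapped through HFD replicate 2.

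Among 16 genes of mtDNA maintenance the median was 0.12. Tk2, a mitochondrial thymidine kinase that supplies nucleotides, had 6.04 to 10.7 CPM in HFD and 5.01 to 5.87 CPM in CF (log2 fold change 0.50 ± 0.19, edgeR, adjusted p = 0.473, and 0.30 without HFD replicate 1). Tfam, which packages mitochondrial DNA and starts its transcription, had 14.0 to 18.1 CPM in HFD and 12.8 to 14.9 CPM in CF (0.25 ± 0.11, adjusted p = 0.615). Among 10 genes of mitochondrial transcription the median was 0.31 and 9 estimates were above 0, with Mterf4 at 0.56 ± 0.20 (adjusted p = 0.377) and the elongation factor Tefm at 0.77 ± 0.33 (adjusted p = 0.568, 0.59 to 2.54 CPM).

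Of 24 genes that process mitochondrial RNA, 18 had estimates above 0 (median 0.11). Fastkd2, an RNA-binding protein of mitochondrial RNA granules, had 7.38 to 8.89 CPM in HFD and 5.17 to 6.27 CPM in CF (log2 fold change 0.57 ± 0.13, edgeR, adjusted p = 0.128). Tbrg4, also called Fastkd4, which acts on the stability of mitochondrial mRNAs, went the other way, with 33.6 to 53.6 CPM in HFD and 63.4 to 122.3 CPM in CF (-1.08 ± 0.22, adjusted p = 0.0884). Its gene encloses 2 snoRNA genes on the same strand, Gm24313 (log2 fold change -1.63) and Snora5c (-1.48), and reads of these and of Tbrg4 cannot be told apart with certainty in counts per gene.

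The 35 genes that charge or modify mitochondrial tRNAs had a median of 0.12, with 25 estimates above 0. Nsun3, which modifies the anticodon of mt-Tm, had 0.34 ± 0.13 (edgeR, adjusted p = 0.491). The 78 proteins of the mitochondrial ribosome had a median of 0.12 and 64 estimates above 0, with Mrpl39 at 0.41 ± 0.13 (adjusted p = 0.295) and Mrpl58 at 0.45 ± 0.17 (adjusted p = 0.423).

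Among nuclear subunits, the 37 tested genes of complex I had a median of 0.13. Ndufs7 had 18.3 to 24.7 CPM in HFD and 28.5 to 46.0 CPM in CF (log2 fold change -0.78 ± 0.18, edgeR, adjusted p = 0.122), and Ndufv3 12.6 to 15.2 and 7.15 to 11.1 CPM (0.63 ± 0.16, adjusted p = 0.171). The medians were 0.15 over 4 genes of complex II (Sdhd 0.18, Sdhb 0.20), 0.11 over 9 of complex III (Uqcrfs1 0.20, Uqcrh 0.24), 0.17 over 13 of complex IV (Cox4i1 0.45, Cox6a2 0.78) and 0.21 over 17 of complex V (Atp5mpl 0.38, Atp5g3 0.23), with adjusted p of 0.332 or more for these 8 genes. With a library left out, the estimates were as low as 0.04 for Sdhb, 0.06 for Uqcrh, 0.07 for Uqcrfs1, 0.11 for Atp5g3 and 0.22 for Atp5mpl, each without HFD replicate 4, and 0.10 for Sdhd without HFD replicate 1.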

How the data were processed

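Transcriptomes of sorted CDPs were analysed from the table of raw counts per gene that the authors deposited for 8 libraries. According to the methods, 75-base read pairs were mapped by HISAT2 and pairs with a unique position were counted per GENCODE gene by StringTie, and the processing notes also name FastQC, cutadapt and GRCm38. Versions and the use of strand are not given in the sources used here. Columns were matched to replicates by sample number. GENCODE vM21 gave the coordinates and tRNA sequences and holds 16067 of the 16119 Ensembl identifiers (52 had no match).

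The fit used edgeR 4.0.16 in R 4.3.3 (filterByExpr, TMM, robust quasi-likelihood fit, diet as the only term), with Benjamini-Hochberg adjustment over 15837 genes and a threshold of 0.05. All 36 members passed the filter. The error of a fold change is the coefficient divided by the root of its F statistic. Shares and ratios were compared by exact two-sided permutation over the 70 ways to draw 4 of 8. The study's own test was made with Ballgown, and its FPKM values were not used here. Nuclear copies were found by matching every 75-base window of the mitochondrial genes to 141730 annotated nuclear transcripts. The nuclear genome itself was not searched.

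The members, lists and tests were chosen with earlier results of these data known. All members are named, and from each nuclear list the 2 genes with the lowest p, of which 1 is not reported here. Alternatives were RLE factors, library size alone, TMM factors from nuclear protein-coding genes, DESeq2 1.42.0, limma voom 3.58.1, other filters, a replicate block and leaving out each library. Python 3.11.15 with matplotlib 3.10.9 drew the figures.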

Additional observations from a re-analysis of the deposited data

Results flagged for a closer look

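In 134 groups of 4 libraries (log2 CPM of each member and the shares and ratios of each diet), 6 had a library whose gap to the next took up most of the group's range. For independent groups chance would flag about 1 in 20, but these groups share libraries and partly the same values. In CF, replicate 4 lay below the other replicates for mt-Rnr1 (13.9 against 14.4 to 14.5 log2 CPM), mt-Tv (8.75 against 10.2 to 10.4), mt-Ti (4.78 against 5.93 to 6.04) and mt-Tt (2.71 against 4.17 to 4.24). In HFD, replicate 2 had a mt-Nd3 share of mt-mRNA counts of 0.809%, where the other replicates had 0.692% to 0.698%. The methionine tRNA mt-Tm held 39.4% of mt-tRNA counts in HFD replicate 1 and 21.7% to 24.6% in the other HFD replicates.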

How the results depend on the processing

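The log2 fold changes of the 36 genes kept their direction in 605 of 612 comparisons with an alternative. Those above 0 were mt-Rnr1 (0.0215), mt-Rnr2 (0.0949), mt-Co3 (0.0617) and mt-Ty (0.20) with library size alone, and mt-Ty without 1 library, up to 0.10 without HFD replicate 1 (0.09 and 0.03 without CF replicates 2 and 3). The count of mitochondrial genes called lower was 13 with DESeq2, 1 with library size alone (mt-Tw, where 0.619% of all genes were called lower) and 0 to 3 with a library left out (3 without CF replicate 4). Of the nuclear lists, DESeq2 called 2 lower and 2 higher, where it called 503 and 64 of 15837 genes. Leaving out a library gave 0 to 1 lower (1 without CF replicate 4, of 154 called lower in all) and 0 to 1 higher (1 without HFD replicate 1, of 34 called higher in all). The cause of these differences was not tested. With a library left out, small estimates moved by over 1.5 times, from -0.33 to -0.15 for mt-Rnr1, -0.25 to -0.07 for mt-Rnr2, -0.25 to -0.04 for mt-Co3, -0.43 to -0.17 for mt-Tl1 and -0.81 to -0.41 for mt-Tc, and 0.16 to 0.32 for Tfam and 0.51 to 1.08 for Cox6a2.

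Whether replicate numbers pair the libraries is not given. Same-numbered libraries had correlations of -0.44, -0.08, -0.23 and -0.18 in their deviations from the group means. These correlations cannot decide on pairing, since differences of single libraries also enter them. With the replicate number as a block, 0 mitochondrial genes and 0 of all 15837 genes were called, and 19 and 675 were lower at an unadjusted p below 0.05. The log2 difference of mt-mRNA among protein-coding counts was then -0.377 and that of the complex III share -0.0610, both with an exact p of 0.125, the smallest that 4 differences allow. With a library left out these were -0.440 to -0.273 and -0.0735 to -0.0466, and an exact p of 0.0571 was the smallest possible.

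The mt-mRNA share of all counts differed by -0.41 to -0.02 over its alternatives. The mt-rRNA difference was -0.21 over counts of genes longer than 200 nt and -0.16 in summed CPM, where the share of all counts gave 0.07 (0.02 to 0.14 with a library left out). The mt-tRNA share had a log2 difference of -1.53 (exact p = 0.0286) over genes longer than 200 nt. Per kilobase, the complex III share differed by -0.0291 (exact p = 0.429), complex V by -0.0769 (exact p = 0.0286), mt-Co2 by 0.0131 and mt-Atp6 by 0.0318. With a library left out, the mt-Nd6 ratio was -0.142 to 0.00716, its share of mt-mRNA -0.133 to 0.00915, the mt-Co2 share -0.0421 to 0.0249, the mt-Atp6 share -0.0119 to 0.0173 (0.00012 with the block) and the ratio of mt-tRNA to nuclear short RNA -0.280 to 0.0559. Depth limits mainly the 6 tRNAs with fewer than 100 counts in a library, and intervals for single libraries would cover counting error only.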
